A study of Mus musculus with 1 sample.

Results

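The 10 genes described here encode the transcription factors of the GATA complex and its partners in red cell and platelet formation, *Gata1*, *Gata2*, *Klf1*, *Tal1*, *Lmo2*, *Ldb1*, *Zfpm1*, *Nfe2*, *Gfi1b* and *Runx1*. They were taken as a fixed list of symbols, mapped to Ensembl identifiers with GENCODE M21, and all 10 were among the 54532 genes with a deposited value. The values come from 1 RNA-seq library labelled as sorted c-kit+ bone marrow (BM) cells of Ctrl mice, whose strain is given as C57BL/6 and whose genotype is given as wild type. The gate in the sample's description adds absence of lineage markers (Lin-) and of Sca-1. In the library so labelled, *Kit*, the gene of c-kit, had 7.17 FPKM (fragments scaled by gene length and library size), above 43.7% of the protein-coding genes that reached 1 FPKM. That place rested on the length used, since *Kit* had 1008 fragments not divided by length, beside a median of 646.5 for these genes. *Ly6g* and *Ly6c2*, genes of antigens usual in lineage panels, had 194 and 289 FPKM, and *Ly6a*, the Sca-1 gene, 28.5 FPKM. Age, sex, number of mice and whether the Ctrl mice carried a floxed *Gadd45g* allele or *Vav-Cre* are not given in the sources used here for this library. The study compared such cells with those of *Gadd45g*+/- mice with MPN (myeloproliferative neoplasm), whose library was not analysed here. No fold change between genotypes, no replicate spread and no test is therefore given, and every value below is a level or a ratio of levels within the Ctrl library.

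In red cell precursors and megakaryocytes, GATA1 binds DNA together with TAL1, an E protein, LMO2 and LDB1, where LMO2 is the bridge between the DNA-binding proteins and LDB1 joins distant sites into loops. FOG1, the product of *Zfpm1*, is a cofactor that binds GATA factors directly, and KLF1 and NF-E2 act with the complex on globin, heme and platelet genes. GATA2 works in stem cells, early progenitors and mast cells, and its place on shared sites is taken over by GATA1 as red cell precursors mature. GFI1B is a repressor needed in both lineages, and RUNX1 is needed for blood stem cells to form and for megakaryocytes to mature.

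All 10 factor genes were expressed, and their levels spanned a range of 25.7 times with the summed exon length that the deposited values use, 18.7 times with the longest transcript as length and 8.95 times in fragments not divided by length. Levels are in FPKM, a fragment count scaled by the length of the gene and by the size of the library, and a gene was called detected at 1 FPKM. All 10 reached this minimum, as did 46.8% of the 21995 protein-coding genes and 22.2% of all genes in the table. At 10 FPKM there were 8 of the 10, beside 21.2% of protein-coding genes. The median of the 10 genes was 61.0 FPKM, beside a median of 8.66 FPKM for the 10290 detected protein-coding genes, of which 92.2% lay below the median of the factors. Together the 10 genes held 0.161% of the summed FPKM, from 30952 recovered fragments. Fragments were recovered from each FPKM value and the gene's summed exon length, and the 95% intervals below are Wilson intervals of these fragments that cover counting error only. In a bulk library, fewer cells of a type and less RNA per cell cannot be told apart.

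**Figure D1:**
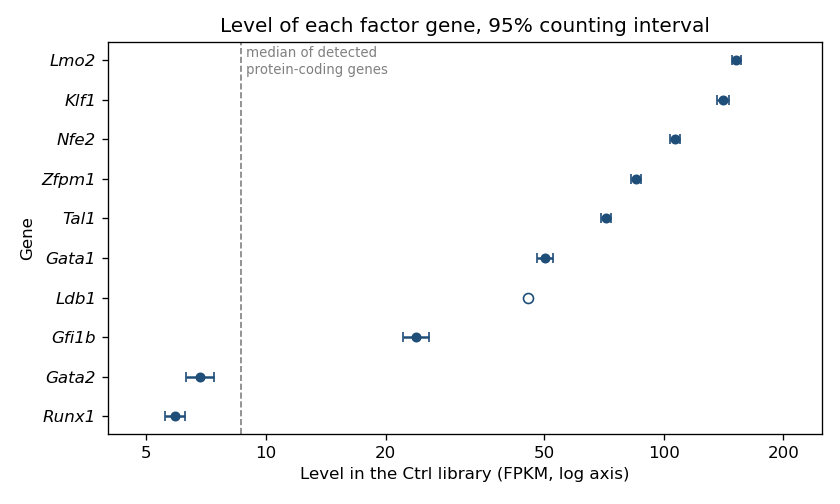
Level of each of the 10 factor genes in the Ctrl library, in FPKM on a log axis. Points are the deposited values, bars are 95% Wilson intervals of recovered fragments, the open circle is *Ldb1*, which was given no interval, and the dashed line is the median of detected protein-coding genes at 8.66 FPKM. *Lmo2* and *Klf1* lie at the top, and *Gata2* and *Runx1* are the only members left of the line, where *Runx1* passes the median with the longest transcript as length and in fragments not divided by length.

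By FPKM, the genes fell into an upper set of 7, a middle gene and a lower pair. *Lmo2* was highest at 152 FPKM (interval, 148 to 156), followed by *Klf1* at 141 FPKM (136 to 146) and *Nfe2* at 107 FPKM (104 to 109.9). *Zfpm1* had 85.2 FPKM (82.8 to 87.7), *Tal1* 71.7 FPKM (69.7 to 73.7), *Gata1* 50.3 FPKM (48.1 to 52.5) and *Ldb1* 45.6 FPKM. Each of these was above at least 89.1% of detected protein-coding genes. *Gfi1b* stood between the sets at 23.9 FPKM (22.1 to 25.7), above 78.1% of them. *Gata2* at 6.82 FPKM (6.29 to 7.40) and *Runx1* at 5.91 FPKM (5.58 to 6.27) were below the median of detected genes, above 42.2% and 37.9% of them. The place of *Runx1* rested on the length used, since with the longest transcript as length for every gene it had 12.1 FPKM beside a median of 11.2 FPKM, and in fragments not divided by length it had 1122 beside a median of 646.5. *Gata2* was below the median in both, at 10.3 FPKM and 581 fragments. The widest gap between neighbours in this order was that from *Gfi1b* to *Gata2*, a ratio of 3.50, and the narrowest was that from *Lmo2* to *Klf1*, a ratio of 1.08. The intervals of neighbours did not overlap wherever both genes had one. *Ldb1* had none because its value was not a whole multiple of the fragment step, so the error of its place between *Gata1* and *Gfi1b* is unknown.

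**Figure D2:**
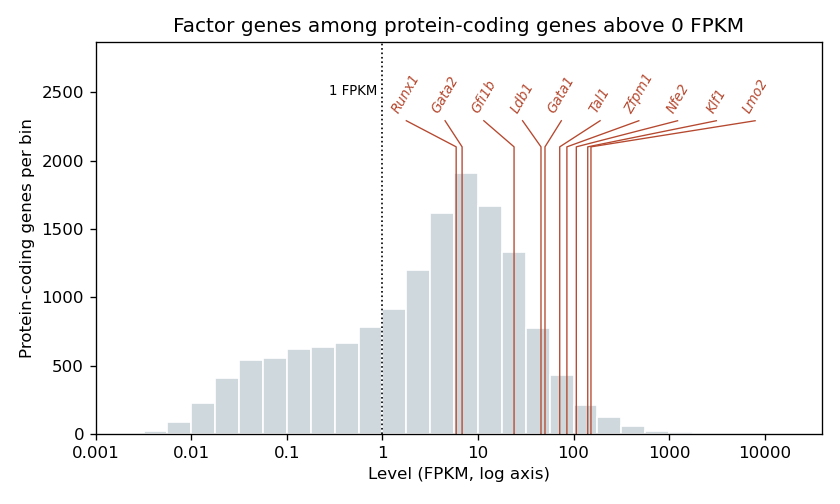
Number of protein-coding genes per bin of level in the Ctrl library (FPKM, log axis), for genes above 0, with the 10 factor genes marked by lines and names. The dotted line is the detection minimum of 1 FPKM. *Runx1* and *Gata2* lie at the peak of the distribution and the other 8 genes to its right.

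Of the GATA factors themselves, *Gata1* and *Gata2* were detected and the 4 other family members were not. *Gata1* (ENSMUSG00000031162), the gene of the main GATA factor of red cells, megakaryocytes, mast cells and eosinophils, is a reverse-strand gene of chromosome X (7959260 to 7978071, GRCm38) and had 1934 recovered fragments. *Gata2* (ENSMUSG00000015053, forward strand of chromosome 6, 88193891 to 88207032) had 581. Per length, the level of *Gata1* was 7.37 times that of *Gata2*, with an exact binomial 95% interval of 6.71 to 8.10. *Gata3*, a factor of T cells, had 0.685 FPKM from 43 fragments, and *Gata2* was 9.96 times as high (interval, 7.30 to 13.9). *Gata4*, *Gata5* and *Gata6*, which serve heart, gut and other tissues outside blood, were listed at 0, and 3 fragments would have given them 0.0487, 0.0580 and 0.0292 FPKM. The level of *Gata2* was close to that of *Kit*, a known GATA target that encodes the receptor used for the sort, at 7.17 FPKM (6.74 to 7.62), with a ratio of *Kit* to *Gata2* of 1.05 (0.948 to 1.17). *Zfpm1* (ENSMUSG00000049577, forward strand of chromosome 8, 122282141 to 122337251) had 1.69 times the level of *Gata1* (1.61 to 1.79). Its relative *Zfpm2*, the FOG gene of heart and gonads, was listed at 0 (up to 0.0199 FPKM by the same limit).

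The genes of the bridging proteins were unequal, with *Lmo2* above every other gene of the complex. *Lmo2* (ENSMUSG00000032698, forward strand of chromosome 2, 103957986 to 103981878) had 2.12 times the level of *Tal1* (interval, 2.04 to 2.21) and 3.03 times that of *Gata1* (2.87 to 3.19). *Ldb1* (ENSMUSG00000025223, reverse strand of chromosome 19, 46031570 to 46045214) was nearest to *Gata1* in level, at 0.908 of it, and *Lmo2* was 3.33 times as high as *Ldb1*. With the longest transcript as length *Ldb1* came to 1.04 times *Gata1*, and in fragments not divided by length to 1.72 times. Both values use the rounded fragments of *Ldb1*, whose multiple was not whole, so whether the order turned is uncertain. Among the relatives of *Lmo2*, *Lmo4*, a LIM-only gene of many tissues that also binds LDB1, had 40.0 FPKM, so that *Lmo2* was 3.80 times as high (3.62 to 3.995), 2.28 times with the longest transcript as length and 2.33 times in fragments not divided by length. *Lmo1* had 6.12 FPKM, and *Lmo3* was listed at 0 (up to 0.0370 FPKM). *Ldb2*, the other LDB gene, had 0.114 FPKM from 6 fragments.

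Of the basic helix-loop-helix genes, *Tal1* had a close relative at a higher level. *Tal1* (ENSMUSG00000028717, forward strand of chromosome 4, 115056426 to 115071755) had 4955 recovered fragments. *Lyl1*, which can replace part of the function of *Tal1* in blood cells, had 97.3 FPKM (93.7 to 101), or 1.36 times *Tal1* per length (1.29 to 1.42), whereas in fragments not divided by length it was 0.558 of *Tal1*. *Tal2* had 0.299 FPKM. TAL1 binds DNA as a dimer with an E protein, and the E protein gene *Tcf3* had 65.3 FPKM (63.4 to 67.3). *Tal1* was 1.10 times *Tcf3* (1.05 to 1.14), and 0.833 of it with the longest transcript as length. The other E protein genes were lower, *Tcf12* at 4.71 FPKM and *Tcf4* at 1.84 FPKM, with *Tcf3* 13.9 times *Tcf12* (13.0 to 14.8), 7.70 times with the longest transcript as length and 3.61 times in fragments not divided by length. All 12 cofactor genes listed for the complex were detected, with a median of 17.6 FPKM. The chromatin remodeller *Chd4* was highest at 48.1 FPKM, and *Hdac1* had 41.6 FPKM, *Rcor1* 20.8 FPKM and *Kdm1a* 10.9 FPKM, the last 3 belonging to the corepressor that GFI1B recruits. *Cbfa2t3*, the ETO2 gene, which binds TAL1 complexes and holds them inactive in early cells, had 8.38 FPKM. Of the *Ssbp* genes, whose products stabilise LDB1, *Ssbp4* had 19.3 FPKM, *Ssbp3* 16.0 FPKM and *Ssbp2* 2.48 FPKM.

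*Klf1* (ENSMUSG00000054191), the gene of the factor that switches on adult beta-globin, is the shortest of the 10, with 1 annotated transcript, 3 exons and 1530 nucleotides of exon. It is a forward-strand gene of chromosome 8 (84901928 to 84905291). Of the 16 other KLF genes listed, 11 were detected, with a median of 7.35 FPKM over all 16. *Klf2*, a factor of lymphocytes, macrophages and vessels that also acts on embryonic globin, had 138 FPKM (134 to 142), and the ratio of *Klf1* to *Klf2* was 1.02 with an interval of 0.975 to 1.07 that includes equal levels. The same ratio was 0.845 in fragments not divided by length. *Klf6* followed at 59.1 FPKM, *Klf13* at 30.8 FPKM and *Klf4* at 23.2 FPKM. *Klf3*, itself a target of KLF1 and a repressor on the same sites, had 20.4 FPKM, and *Klf1* was 6.89 times as high per length (6.57 to 7.22), and 3.20 times with the longest transcript as length. In fragments not divided by length *Klf1*, with 3400, was 0.937 of *Klf3*. *Klf6* with 4098 and *Klf13* with 3661 were also above *Klf1* in such fragments. *Klf14* and *Klf17* were listed at 0. *Fli1*, an ETS factor that opposes KLF1 in the choice between the megakaryocyte and the red cell lineage, had 18.7 FPKM, and *Klf1* was 7.51 times as high (7.01 to 8.06).

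*Nfe2* (ENSMUSG00000058794) encodes the large subunit of NF-E2, which pairs with a small Maf protein and is required for platelets to be shed. It is a reverse-strand gene of chromosome 15 (103248212 to 103258403) and has 10 annotated transcripts, the most of the 10 genes. *Nfe2* was the highest gene of its family, at 3.68 times *Nfe2l2* (interval, 3.48 to 3.89), the gene of the oxidative stress factor NRF2, and 4.95 times *Nfe2l1* (4.69 to 5.22). *Bach1*, whose product represses globin genes through the same sites until heme releases it, had 18.7 FPKM, and *Nfe2* was 5.71 times as high (5.41 to 6.03), 8.62 times with the longest transcript as length and 2.76 times in fragments not divided by length. *Bach2*, a B cell factor, had 6.19 FPKM, and *Nfe2l3* had 0.170 FPKM. Of the small Maf genes, *Mafk* had 36.3 FPKM, *Mafg* 33.2 FPKM and *Maff* 1.95 FPKM. *Nfe2* was 2.94 times *Mafk* (2.80 to 3.10) and 3.22 times *Mafg* (3.08 to 3.37), so each partner gene taken alone was lower than *Nfe2*.

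By FPKM, *Runx1* had relatives near its own level, and the relative of *Gfi1b* was lower than *Gfi1b*. *Gfi1b* (ENSMUSG00000026815, reverse strand of chromosome 2, 28609450 to 28621982) had 689 fragments. *Gfi1*, its counterpart in granulocytes and stem cells, had 15.9 FPKM, and the ratio of *Gfi1b* to *Gfi1* had an interval of 1.35 to 1.66. In fragments not divided by length, *Gfi1b* was 0.861 of *Gfi1*. *Runx1* (ENSMUSG00000022952, reverse strand of chromosome 16, 92601466 to 92826149) had 1122 fragments. *Runx3* had 6.96 FPKM (6.41 to 7.57), 1.18 times *Runx1* (1.06 to 1.31), and *Runx2*, best known from bone, had 5.15 FPKM (4.79 to 5.55). The order of *Runx1* and *Runx3* turned with the longest transcript as length, where *Runx3* was 0.740 of *Runx1*. It also turned in fragments not divided by length, where *Runx3* was 0.490 of *Runx1*. The ratio of *Runx1* to *Runx2* was 1.15 per length, 1.72 with the longest transcript as length and 1.56 in fragments not divided by length. *Cbfb*, which encodes the shared partner subunit of all RUNX proteins, had 40.4 FPKM, or 6.83 times *Runx1* (6.35 to 7.35), 4.01 times with the longest transcript as length and 1.98 times in fragments not divided by length.

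**Figure D3:**
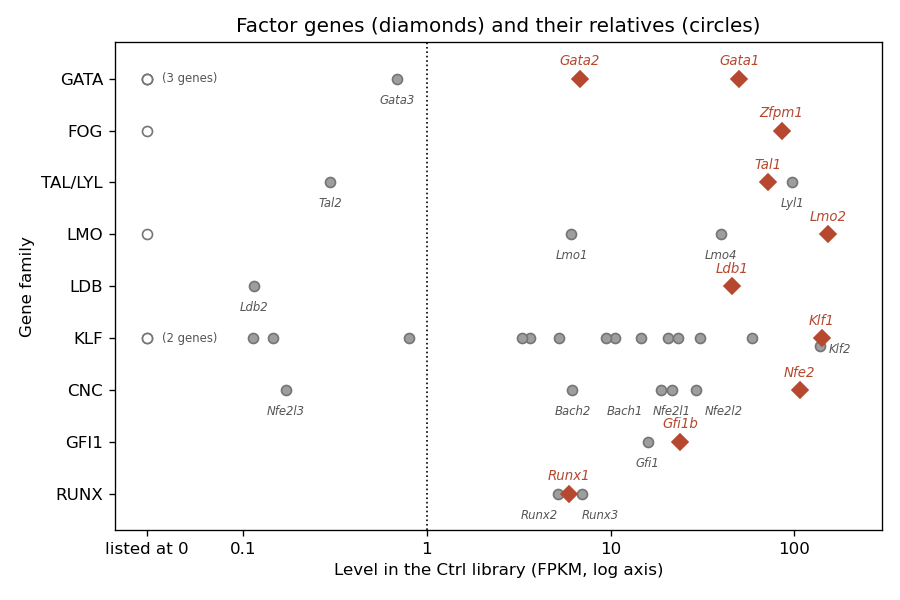
Levels of the 10 factor genes (diamonds) and of their relatives (circles) in the Ctrl library, in FPKM on a log axis, 1 row per gene family; open circles are genes listed at 0 and the dotted line is 1 FPKM. *Gata1*, *Zfpm1*, *Lmo2*, *Ldb1*, *Nfe2* and *Gfi1b* are the highest of their families, and *Lyl1* and *Runx3* exceed *Tal1* and *Runx1*. *Klf1* and *Klf2* coincide at 141 and 138 FPKM (*Klf2* is drawn slightly below its row so that it shows). In fragments not divided by length the orders of *Gfi1b* and *Gfi1*, *Lyl1* and *Tal1*, and *Runx3* and *Runx1* turn. In the same fragments *Klf1* falls below *Klf2*, *Klf3*, *Klf6* and *Klf13*. The order of *Runx3* and *Runx1* also turns with the longest transcript as length.

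The 10 genes differ in structure, and this bears on their levels because FPKM divides by length. Summed exon length ran from 1530 nucleotides for *Klf1* to 12025 for *Runx1*, and the genomic span from 3364 base pairs for *Klf1* to 224684 for *Runx1*. The exons of *Runx1* sum to 2.05 times its longest transcript of 5861 nucleotides, those of *Nfe2* to 1.59 times and those of *Gata2* to 1.51 times. With the longest transcript as length, *Runx1* had 12.1 FPKM and *Gata2* 10.3 FPKM, so their order turned, and their ratio of 1.15 (*Gata2* to *Runx1*; 1.04 to 1.28) became 0.850. *Nfe2* at 170 FPKM also came to lie above *Klf1*, which stayed at 141 FPKM, while *Lmo2* remained first at 193 FPKM. Not divided by length at all, *Lmo2* had 5202 fragments, *Nfe2* 5041, *Tal1* 4955, *Zfpm1* 4710 and *Klf1* 3400. Of the 35 ratios computed between genes, 8 moved by over 1.5 times with the longest transcript as length and 21 did in fragments not divided by length, which the intervals of counting error do not cover. In such fragments *Gata1* was 3.33 times *Gata2*, and *Lmo2* was 1.05 times *Tal1*. *Lmo2* was also 1.57 times *Ldb1*, whose fragments are uncertain since its multiple was not whole. In the same fragments *Nfe2* was 2.72 times *Nfe2l1* and 1.71 times *Mafg*, *Klf1* was 3.30 times *Fli1*, and *Kit* was 1.73 times *Gata2*. Under both lengths and in fragments, *Gfi1b*, *Gata2* and *Runx1* remained the 3 lowest, but in fragments *Gfi1b*, with 689, was below *Runx1*, with 1122. Exons of 2 of the genes overlap exons of a gene on the other strand. *Ldb1* shares 177 nucleotides, 3.84% of its exons, with *Pprc1* at 5.66 FPKM, and *Runx1* shares 106 nucleotides, 0.881%, with the antisense gene *Gm26626* at 0.398 FPKM. The strand setting of the counting is not given in the sources used here, so fragments in these stretches cannot be assigned to either gene.

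**Figure D4:**
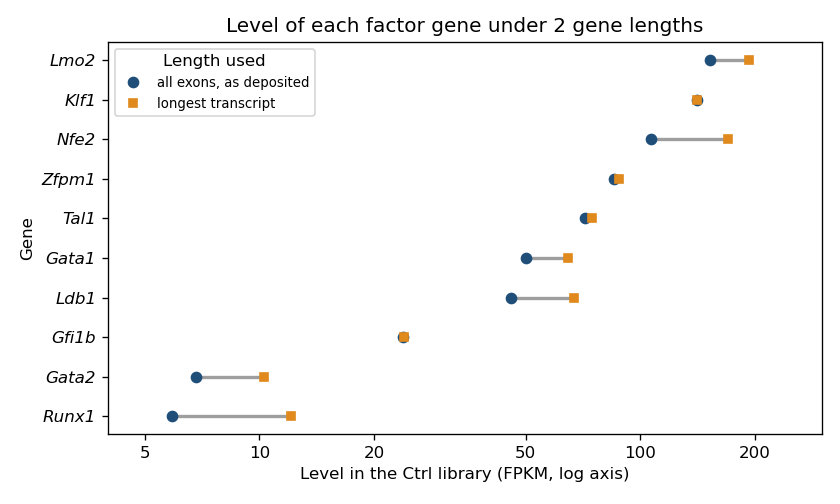
Level of each factor gene in the Ctrl library (FPKM, log axis) with the summed exon length that the deposited values use (circles) and with the longest annotated transcript (squares). The gap is widest for *Runx1*, which moves from 5.91 to 12.1 FPKM and past *Gata2*, and *Klf1* does not move. The square of *Ldb1* is uncertain, since its fragment multiple was not whole.

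The 250 bases before each annotated start were read from RefSeq (GRCm38.p6), which gave 13 windows for 8 of the 10 genes, all but *Lmo2* and *Nfe2*. They were searched on both strands for the GATA words AGATAA and AGATAG and for those that open with T in place of A, namely TGATAA and TGATAG, since these genes encode or partner with the factors that bind such words. A match is a description of the letters only, and no binding was measured. GATA words were found in 4 of the 13 windows (30.8%), beside 26.5% of the 32851 windows of all genes, so the genes of the GATA complex did not stand out in this. The windows with a word are those of *Klf1*, *Gfi1b*, the first start of *Tal1* and the last start of *Ldb1*, and those of *Klf1*, *Gfi1b* and *Tal1* are shown with the GATA word in capitals (each reads 5′ to 3′ along the gene and ends at the base before the start).
Klf1 (chr8:84901732-84901981, forward strand): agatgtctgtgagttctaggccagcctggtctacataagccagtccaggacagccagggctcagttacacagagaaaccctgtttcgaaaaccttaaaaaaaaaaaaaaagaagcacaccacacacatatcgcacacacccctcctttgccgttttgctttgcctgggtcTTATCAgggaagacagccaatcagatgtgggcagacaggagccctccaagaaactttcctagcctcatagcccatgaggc
Gfi1b (chr2:28621983-28622232, reverse strand): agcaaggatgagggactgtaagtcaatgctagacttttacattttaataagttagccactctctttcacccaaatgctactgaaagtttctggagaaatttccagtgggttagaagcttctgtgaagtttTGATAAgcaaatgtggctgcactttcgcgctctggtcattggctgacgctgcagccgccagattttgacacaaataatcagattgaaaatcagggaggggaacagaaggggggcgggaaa
Tal1 (chr4:115056176-115056425, forward strand): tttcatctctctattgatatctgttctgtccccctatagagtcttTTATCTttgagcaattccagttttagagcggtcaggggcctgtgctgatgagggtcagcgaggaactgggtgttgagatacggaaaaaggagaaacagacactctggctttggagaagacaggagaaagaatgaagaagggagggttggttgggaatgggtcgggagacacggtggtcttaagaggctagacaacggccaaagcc
In the *Klf1* window the word begins 80 bases before the start and reads TTATCA, which is TGATAA on the other strand. In that of *Gfi1b*, TGATAA begins 120 bases before the start, and in that of *Tal1*, TTATCT, or AGATAA on the other strand, begins 205 bases before it. For the first start of *Tal1* and the last start of *Ldb1*, 2 of the 4 windows with a GATA word, the bases after the start matched no annotated transcript of the gene, so start and direction rest on RefSeq alone. *Gata1*, *Gata2*, *Zfpm1* and *Runx1* had no GATA word in these windows.

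The KLF word CCNCNCCC was the more common one in these windows. It was present in 11 of 13 windows (84.6%) of 7 of the 8 genes, beside 45.9% of all windows, and *Klf1* was the gene without it. The windows of the factor genes were also richer in G and C, with a median of 62.8% against 52.4% for all windows, and the part of base composition in the match was not tested. The window of *Gata1* held 3 matches, shown in capitals.
Gata1 (chrX:7967911-7968160, reverse strand): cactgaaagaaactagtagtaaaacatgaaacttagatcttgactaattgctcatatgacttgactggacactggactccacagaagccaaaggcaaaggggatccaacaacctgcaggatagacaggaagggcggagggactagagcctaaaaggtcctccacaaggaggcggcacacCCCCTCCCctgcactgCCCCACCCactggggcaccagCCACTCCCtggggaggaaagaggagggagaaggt
These begin 71, 55 and 34 bases before the start and read CCCCTCCC, CCCCACCC and CCACTCCC. The E-box CANNTG was in 5 of 13 windows (38.5%) against 66.2% of all windows. The RUNX words TGTGGT and TGCGGT were in 1 of 13 (7.69%) against 18.6%. The windows of 1 gene are not independent, since *Ldb1* has 3 starts and *Gata2*, *Tal1* and *Runx1* have a pair each. A single value per gene does not show which start was used.

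Red cell genes known as targets of these factors were high and megakaryocyte targets were low in the same library. All 18 red cell targets with a value were detected, with a median of 251 FPKM, and without the 4 globin genes, whose near-identical copies can share fragments, the median of the other 14 was 177 FPKM. *Hba-a1*, an alpha-globin gene, was highest at 25466 FPKM. *Alas2*, the first enzyme of heme synthesis in red cells and a GATA1 target, had 1189 FPKM, and *Slc4a1*, the anion exchanger band 3, had 1037 FPKM. The lowest was *Epor*, the erythropoietin receptor gene, at 49.9 FPKM (47.4 to 52.4), a level nearly that of *Gata1* (ratio of *Gata1* to *Epor* 1.01; 0.943 to 1.08). Of the 12 megakaryocyte targets, 9 were detected, with a median of 4.54 FPKM and 0.0258% of the summed FPKM. This median counts *Gp1bb* at 0, an uncertain value since 91.1% of its exon bases are shared with *Sept5*, and without *Gp1bb* the median of the other 11 was 7.30 FPKM. *Ppbp* and *Pf4*, chemokine genes of platelet granules, had 38.7 and 20.2 FPKM, *Gp9* 16.2 FPKM and *Itga2b*, which encodes CD41, 9.73 FPKM. *Tubb1*, the platelet tubulin gene and an NF-E2 target, had 7.30 FPKM, and *Vwf* had 1.28 FPKM. The median of the red cell targets was 55.4 times that of the megakaryocyte targets, and 34.4 times without *Gp1bb*. The lists were chosen with earlier results of these data known, so these ratios describe the listed genes only.

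By FPKM, other factors of red cell and megakaryocyte development were mostly below the GATA complex genes. All 9 other red cell factors were detected, with a median of 17.1 FPKM, from *Ikzf1*, a factor of lymphoid and red cells, at 74.0 FPKM to *Bcl11a*, a repressor of embryonic globin, at 4.30 FPKM. *Foxo3* had 40.9 FPKM, *Zbtb7a* 25.5 FPKM and *Myb*, which keeps progenitors dividing, 16.5 FPKM. Of 8 other megakaryocyte factors 7 were detected, with a median of 13.4 FPKM. *Ets1* and *Srf* led at 27.8 and 27.5 FPKM, and *Meis1*, a stem cell and megakaryocyte factor, had 0.493 FPKM. In fragments not divided by length, *Ikzf1* with 6750 was above *Lmo2*, the highest of the GATA complex genes, with 5202. *Foxo3* with 4888 and *Ets1* with 3717 were above *Klf1* with 3400, whereas *Zbtb7a*, *Myb* and *Srf* were below *Klf1*. The order against the GATA complex genes thus rests in part on the length used. Some factors of other blood lineages reached higher levels. The 11 genes listed, among them *Gfi1* and *Klf4* from the families above, had a median of 23.2 FPKM, and 10 were detected. Highest were *Cebpb* at 190 FPKM, *Spi1*, which encodes PU.1, the myeloid factor that GATA1 antagonises, at 137 FPKM and the granulocyte factor *Cebpe* at 131 FPKM. Lowest were *Ebf1* at 4.53 FPKM and *Bcl11b* at 0.820 FPKM. *Gata1* was at 0.366 of *Spi1* (0.348 to 0.386).

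**Figure D5:**
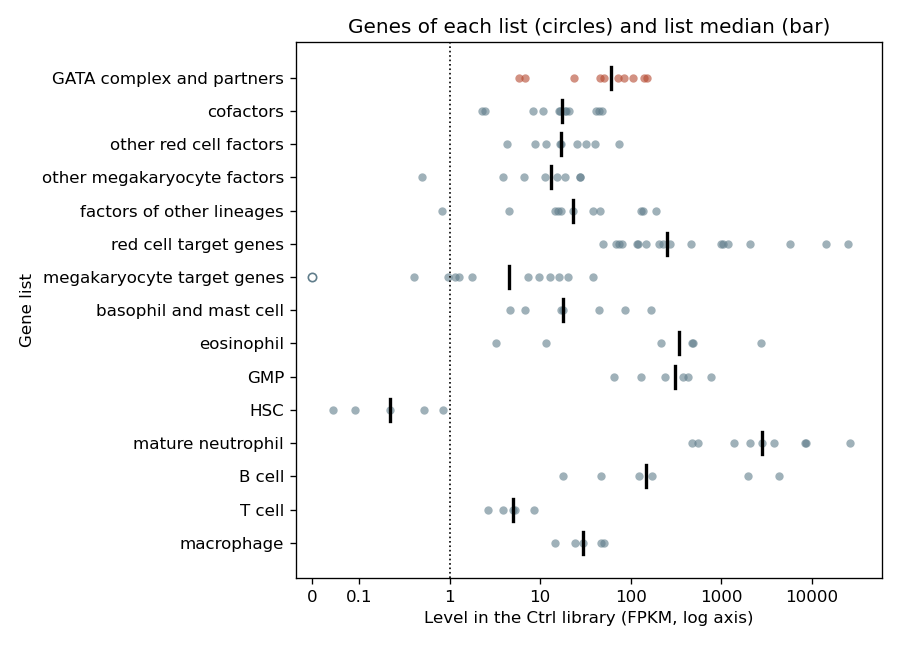
Levels in the Ctrl library (FPKM, log axis) of the genes of each list, as circles, with the median of the list as a black bar; an open circle at 0 is a gene listed at 0 and the dotted line is 1 FPKM. The 10 GATA complex and partner genes have a median of 61.0 FPKM, between the megakaryocyte targets at 4.54 FPKM (7.30 FPKM without *Gp1bb*) and the red cell targets at 251 FPKM.

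Markers of several blood cell types were present beside these factors, although the gate names a lineage-negative population. By FPKM, *Kit*, the gene of the antigen sorted for, was below the median of detected protein-coding genes. In fragments not divided by length *Kit* was above that median, with 1008 beside 646.5. Of the genes of antigens usual in lineage panels, *Ly6g* and *Ly6c2* had 194 and 289 FPKM, *Itgam* 52.9 FPKM and *Cd5* 4.50 FPKM, and *Ly6a*, which encodes Sca-1, had 28.5 FPKM. *Itgam* shares 68.7% of its exon bases with *Gm49368*, at 0.145 FPKM, so its value is uncertain. *Ptprc* had 40.5 FPKM, but a value per gene covers CD45 of all leukocytes and progenitors and not the B220 form alone. All 9 mature neutrophil genes were detected and held 12.8% of the summed FPKM, led by *S100a9* at 26677 FPKM. The 18 red cell targets held 12.3% of it, the 6 B cell genes 1.56%, led by *Igkc* at 4323 FPKM, and the 6 eosinophil genes 0.924%. Granulocyte-macrophage progenitor genes had a median of 310.0 FPKM (6 of 6 detected) and held 0.474%, led by *Elane* at 781 FPKM. Of 7 megakaryocyte-erythroid progenitor genes 5 were detected, led by *Apoe* at 236 FPKM, with a median of 18.1 FPKM and 0.0800% of the summed FPKM (a median of 23.2 FPKM without *Icam4*, whose listing at 0 is uncertain); *Epor* is on this list and on that of the red cell targets. The 5 macrophage genes had a median of 29.9 FPKM and 0.0388% of the summed FPKM, led by *C1qb* at 50.3 FPKM. The 5 T cell genes had a median of 5.02 FPKM and 0.00590%, led by *Cd3d* at 8.55 FPKM. None of the 5 stem cell genes was detected, and their levels ran from 0.0510 FPKM for *Mecom* to 0.844 FPKM for *Hlf*, 1.73 FPKM in all.

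Several of these other cells use GATA factors themselves. Eosinophils need GATA1, and their gene *Prg2* had 2766 FPKM, *Epx*, eosinophil peroxidase, 216 FPKM, and *Il5ra* 3.30 FPKM, for a list median of 345 FPKM. Basophils and mast cells use GATA2 and GATA1. Their genes, *Gata2* included in the list, were all detected (7 of 7), with a median of 17.7 FPKM, 0.0804% of the summed FPKM, and *Prss34* highest at 168 FPKM, *Mcpt8* at 87.0 FPKM, *Hdc* at 44.4 FPKM and *Cpa3* at 17.7 FPKM. This median counts *Gata2* itself, at 6.82 FPKM, and is higher without it. How much of the level of each factor came from red cell precursors, megakaryocytes, eosinophils, basophils or sorted progenitors cannot be told apart in 1 bulk library.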

How the data were processed

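Per the labels, the authors sorted c-kit+ BM cells of Ctrl mice, extracted total RNA with TRIzol and sequenced it on an Illumina HiSeq platform. The submitters' processing notes name HISAT2 2.0.5, featureCounts 1.5.0-p3 and the build mm10; annotation, strand setting and the number of mice are not given in the sources used here. The authors deposited 1 FPKM value per gene for 54532 genes, and no counts. Of these, 54495 were matched to GENCODE M21 (GRCm38), which supplied symbols, coordinates and lengths.

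FPKM values were multiplied by the summed exon length. The products were whole multiples of a common step (tolerance 0.01) for 96.4% of the 21313 genes above 0, where chance gives 2%. This share was 64.6% on chromosomes 17, 18 and 19 together and 99.9% on the other chromosomes. On chromosome 19, where *Ldb1* lies, it was 48.9%. Rounded multiples were taken as fragments, 17113323 in all, whereas the step itself implies a total of 15783891. On simulated fragments for the Ctrl library, 1.56% of the 962 genes given a wrong length were still called whole. A gene whose multiple was not whole, such as *Ldb1*, *Prss34* or *Cd5*, was given no interval. Intervals are 95% Wilson for a level and exact binomial for the 35 ratios computed, apart from those with *Ldb1*, which were given none. For a gene at 0 the limit is 3 fragments. With 1 library there was no test. *Ahsp* and *Ly76* were not analysed here.

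The members and gene lists were chosen with earlier results of these data known. The text names all members, the genes of the lists of relatives, partners, targets and cell type markers by role or as the highest or lowest of a list, and genes overlapping a member; the values of 2 listed genes are not reported here. Promoter windows are from RefSeq (GRCm38.p6); the 30 bases from 21 to 50 after the start matched a transcript of the gene in the printed direction in 10 of 13 windows and none matched in the opposite one. Alternatives were other scalings, detection minimums, backgrounds and gene lengths. Computations used Python 3.11.15 (scipy 1.17.1, pandas 2.3.3, numpy 2.4.6), and plots matplotlib 3.10.9.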

Additional observations from a re-analysis of the deposited data

How the results depend on the processing

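No paired analysis was possible because only 1 Ctrl library, with no replicate number, was used. Depth limited the lowest relatives, such as *Ldb2* with 6 fragments, and not the 10 factor genes, of which the least covered had 581, while 1 library gives no spread between mice. The median of the 10 genes, 61.0 FPKM, was 66.5 after removal of the 10 most abundant genes from the total and 142 on the TPM scale, factors of 1.09 and 2.33 common to every gene, and 62.2 without mitochondrial genes. Their share of the summed FPKM, 0.161%, was 0.217% without the 10 most abundant genes and 0.167% without mitochondrial genes. The span of their levels, 25.7 times, was 18.7 with the longest transcript as length and 8.95 in fragments, alternatives chosen after seeing the data. *Runx1*, below the median of detected genes by FPKM, was above it in both, and *Gata2* was below it. All 10 reached 0.1 FPKM and 8 reached 10 FPKM. The share of genes below their median, 92.2%, was 96.3% against all protein-coding genes, 92.4% against all detected genes and 90.7% in fragments not divided by length.

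Ratios of genes kept their direction in the 3 pairs examined this way. The log2 ratio of *Gata1* to *Gata2*, 2.88, was 2.71 with a pseudocount of 1 FPKM, 2.64 with the longest transcript as length and 1.73 in fragments not divided by length. In such fragments that of *Gata1* to *Spi1*, -1.45, was -1.59, and that of *Nfe2* to *Nfe2l2*, 1.88, was 1.53. The log2 ratio of the red cell to the megakaryocyte target median, 5.79, was 5.51 with the pseudocount, 6.21 in fragments, 6.11 with the longest transcript and 5.29 without globin genes, and 5.11 without *Gp1bb*, an alternative chosen after seeing the data. Of the 10 members, 2 kept their place in the order in fragments and 4 did with the longest transcript. Of the 35 ratios computed, 9 changed direction in fragments and 4 with the longest transcript, and these changes follow from the lengths used. The change for *Ldb1* to *Gata1*, counted in both, is uncertain since the multiple of *Ldb1* was not whole. The places of *Ldb1* and *Gata1* in these orders are uncertain for the same reason.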

Other observations

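Among the target and progenitor genes of these factors, *Gp1bb* and *Icam4* were listed at 0 while related genes were not. *Gp1bb*, which encodes a chain of the platelet von Willebrand receptor, shares 91.1% of its exon bases with *Sept5*, at 6.65 FPKM, and its partner genes *Gp9* and *Gp1ba* had 16.2 and 1.77 FPKM. *Icam4*, a red cell adhesion gene, shares 100% of its exon bases with the antisense gene *Gm47079*, at 0.273 FPKM. Values for both are therefore uncertain, and the part of the shared bases in the zeros was not tested.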
